A study of Homo sapiens with 14 samples.

Results

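The integrated stress response was followed through the RNA of 10 genes, the transcription factor ATF4 and 9 genes that it is known to act on or with: ATF3, DDIT3, TRIB3, CHAC1, ASNS, SESN2, PSAT1, PHGDH and CEBPB. They were found by symbol in the count tables, where all 10 were present among 23106 symbols, and all 10 passed the filter on low counts in every comparison. Polyadenylated RNA was sequenced from PC3 cells, a human prostate cancer line, and from HCT116 cells, a human colorectal cancer line. Normoxia was 21% O2 and hypoxia 0.5% O2 for 16 h, and each of these conditions had 4 libraries of PC3 and 3 of HCT116. The labels name no transgene, deletion or drug, each line grew in its own medium (DMEM/Ham's F12 for PC3, McCoy's 5a for HCT116), and each line descends from the cancer of a single patient. The question put to these data was which of these transcripts moved with oxygen in each line, and whether the lines differed in their level or in their response.

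Cells start the integrated stress response when a kinase that senses a stress phosphorylates the translation factor eIF2 on its alpha subunit, which slows most protein synthesis. The ATF4 message escapes this brake through short reading frames in its leader, so ATF4 protein can rise with no change of its RNA, and translation was not measured here. ATF4 then binds DNA with C/EBP or other bZIP partners and switches on genes for amino acid synthesis, for amino acid transport and for feedback, and severe hypoxia is among the stresses known to start the response.

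C/EBP-ATF response elements, the sites that ATF4 shares with C/EBP partners, were looked for by their letters, TGATGNAA on either strand, in the RefSeq promoters (GRCh38.p14, 250 bases before to 50 after each start). They stood in 3.62% of 35116 promoters and in 3 of the 17 promoters of the 10 genes, those being promoters of ATF3, ASNS and CHAC1. The core of the hypoxia response element was looked for only in its form ACGTG, on either strand. This form stood in 21.4% of promoters and in 2 of the 17 promoters of the 10 genes. Both were of ATF4, where the letters read CACGTG and so match on both strands at once. The cAMP response element, TGACGTCA, which reads alike on both strands, stood in 1.85% of promoters and in none of the 17 promoters of the 10 genes. The stretches of ATF3, ASNS and CHAC1 are shown because C/EBP-ATF response elements are the known kind of site through which ATF4 reaches its targets. That of ATF4 is shown because it holds the ACGTG form of the hypoxia response element core. Each was placed on GRCh37 by exact match, is written on the strand of its gene, and has the matched letters in capitals.
ATF3, upstream promoter, C/EBP-ATF response element, chr1:212738513-212738610, plus strand: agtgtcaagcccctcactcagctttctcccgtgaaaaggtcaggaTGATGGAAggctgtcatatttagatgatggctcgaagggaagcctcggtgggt
ASNS, C/EBP-ATF response element, chr7:97501736-97501833, minus strand: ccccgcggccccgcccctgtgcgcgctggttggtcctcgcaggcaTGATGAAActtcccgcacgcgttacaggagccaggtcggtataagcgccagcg
CHAC1, C/EBP-ATF response element, chr15:41245419-41245512, plus strand, element on the minus strand: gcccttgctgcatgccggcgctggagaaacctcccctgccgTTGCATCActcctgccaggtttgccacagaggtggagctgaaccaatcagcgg
ATF4, hypoxia response element core, chr22:39916438-39916532, plus strand: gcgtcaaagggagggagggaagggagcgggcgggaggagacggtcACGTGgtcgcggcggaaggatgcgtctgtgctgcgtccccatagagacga
The elements began 191 bases before the start of the upstream ATF3 transcript, 68 before that of ASNS, 209 before that of CHAC1 and 81 before that of ATF4, and all 4 stretches lay outside the exons of the reference (MANE Select) transcripts. A match of letters is a description and not a bound site.

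The libraries were deep. Total counts ran from 98021966 to 123935458 in normoxic PC3, from 71228454 to 96159803 in hypoxic PC3, from 136931675 to 147934177 in normoxic HCT116 and from 133067391 to 150630928 in hypoxic HCT116, and the least abundant of the 10 genes in any library was CHAC1 with 394 counts. Levels are given as CPM, the usual depth-scaled count, with TMM factors, so each is measured against the general run of transcripts in its library. In bulk RNA, fewer cells with a transcript and less of it per cell cannot be told apart. The lines carried the markers of their names in part. CDX2, an intestinal transcription factor, was at 16.2 to 20.9 CPM in HCT116 and at 0 in PC3, and HOXB13, a prostate factor, was at 61.9 to 92.9 CPM in PC3 and 9.57 to 10.9 in HCT116, while the prostate antigen KLK3 and the intestinal factor CDX1 were at 0 counts in every library. NDRG1, a hypoxia-induced gene, went from between 276 and 426 CPM to between 1906 and 3409 in PC3 and from between 72.2 and 82.0 to between 406 and 648 in HCT116. Line, medium and library preparation cannot be told apart.

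Some libraries stood apart for these genes under both oxygen conditions. In PC3 the libraries numbered 1 held the highest level of ATF3, DDIT3, CHAC1 and SESN2 in normoxia and again in hypoxia, which was 4 of 10 genes (40%) against 22.1% of the 14309 genes tested in PC3, and of 13 of 18 other stress targets listed further on. The PC3 libraries numbered 3 held the lowest level in both conditions for 5 of the 10 (50% against 5.65% of all genes), and those numbered 4 the highest of ASNS, PSAT1 and PHGDH (30% against 15.6%) and of 10 of 12 cytosolic aminoacyl-tRNA synthetases, enzymes that load amino acids on tRNA and known ATF4 targets. In HCT116 the libraries numbered 2 held the highest level in both conditions for 9 of the 10 genes (90%), all but ATF3, against 16.8% of 14120 genes. The same HCT116 libraries were also highest for 11 of 12 synthetases and 10 of 17 other stress targets. What sets these libraries apart was not tested, and comparisons are also given without the PC3 libraries numbered 1 or the HCT116 libraries numbered 2 where those stood out.

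**Figure D1:**
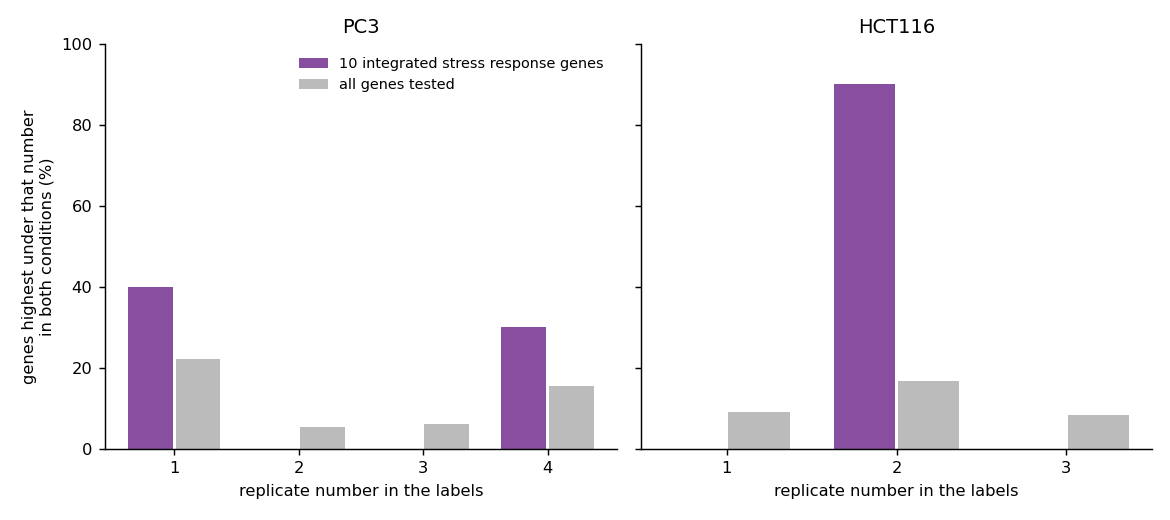
Percentage of genes (vertical axis) whose highest level in normoxia and whose highest level in hypoxia both fell in libraries with the replicate number on the horizontal axis, for the 10 integrated stress response genes and for all genes tested. In HCT116 the libraries numbered 2 took 90% of the 10 genes against 16.8% of all genes, and in PC3 the libraries numbered 1 took 40% against 22.1%.

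Hypoxia was compared with normoxia within each line. In PC3 the edgeR quasi-likelihood test called 0 of the 10 higher and 0 lower after Benjamini-Hochberg adjustment, against 6.03% of all genes higher and 5.29% lower, 1 of the 10 had an unadjusted p under 0.05, and DESeq2 called 1, TRIB3, higher and 0 lower (all genes by DESeq2: 9.74% and 8.46%). Without both libraries numbered 1 none of the 10 passed by edgeR, against 7.04% of all genes higher and 5.42% lower. The replicate numbers were taken to pair the PC3 libraries, from correlations in these same data, as the labels do not state a pairing. A fit with a replicate block compared each hypoxic library with the normoxic one of its number. In that fit 2 of the 10 were higher and 1 lower, against 14.9% and 13.6% of all genes. In HCT116 1 was higher and 1 lower, against 14.6% and 11.3% (by DESeq2, 1 and 2, against 14.9% and 13.9%). The median log2 change of the 10 was 0.06 in PC3 and -0.14 in HCT116, against 0.00 in each line over all genes. In HCT116 and in the paired PC3 fit the share of the 10 that was called was near that of all genes, so these counts set the 10 apart from other genes in neither.

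**Figure D2:**
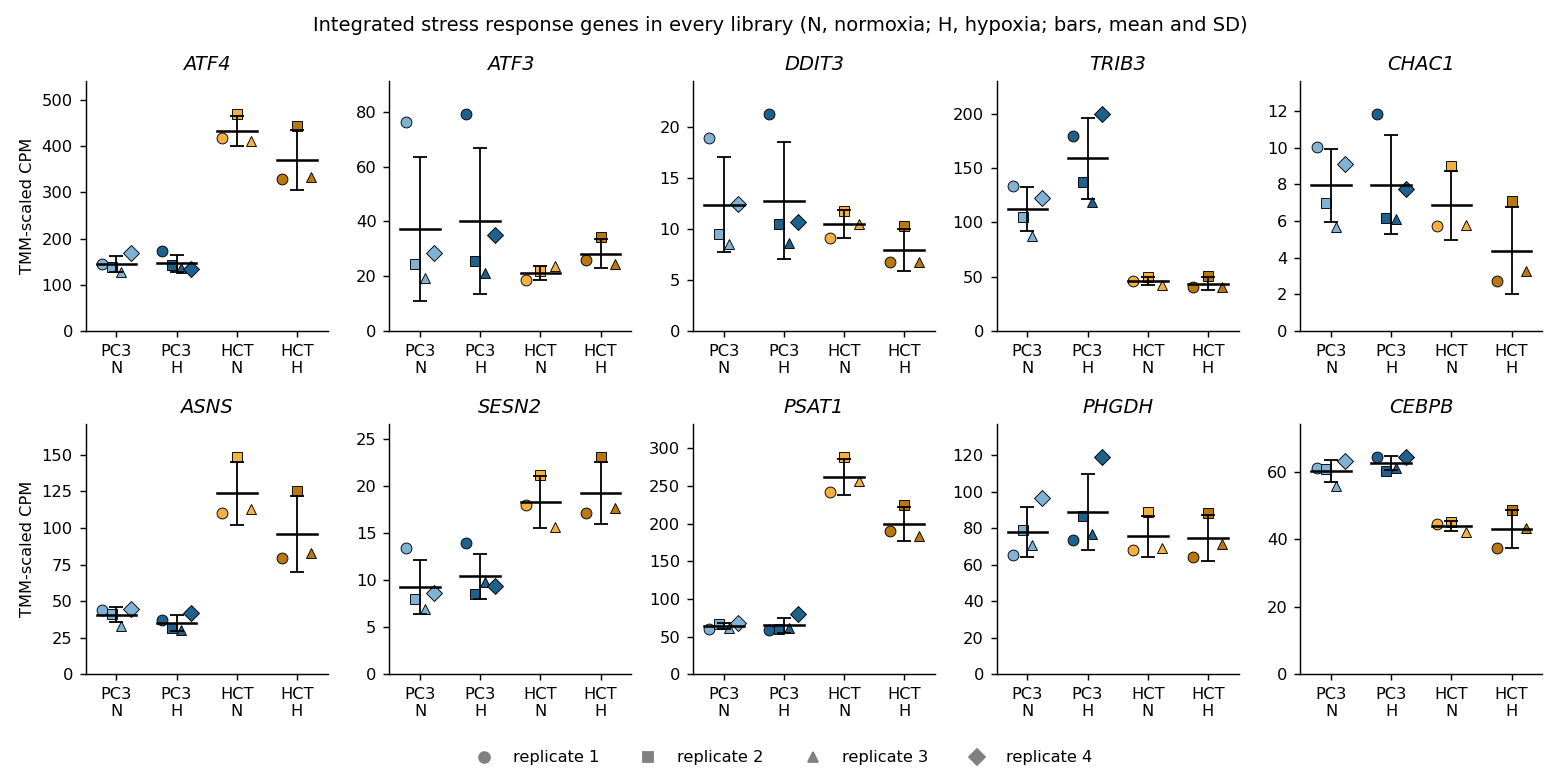
TMM-scaled CPM (vertical axes, each from 0) of the 10 genes in every library of the 4 groups, with N for normoxia, H for hypoxia and HCT for HCT116. Symbols give the replicate number and black bars the mean and SD. Normoxia and hypoxia overlap in every panel of PC3, and in HCT116 only ATF3 and PSAT1 have conditions that do not overlap. The share of all genes without overlap was not computed, so this describes the panels and does not set the 10 apart.

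ATF4 (chromosome 22, 39915700 to 39918688, plus strand, GRCh37, 3 exons in the reference transcript) is the factor at the centre of the response. PC3 held it at 145.2, 138.8, 128.8 and 168.2 CPM in normoxia and at 174.1, 143.0, 136.3 and 134.1 in hypoxia for replicates 1 to 4. In HCT116 it was at 417.8, 470.1 and 410.3 in normoxia and at 329.8, 443.7 and 333.9 in hypoxia for replicates 1 to 3. The PC3 conditions overlapped throughout, while in HCT116 2 of the hypoxic libraries lay below every normoxic library and the one numbered 2 lay among them. The log2 change was 0.02 in PC3 (standard error 0.11, edgeR adjusted p = 0.920) and -0.21 in HCT116 (standard error 0.11, edgeR adjusted p = 0.174), neither past the threshold. GENCODE names 4 pseudogenes of ATF4, and the counts would be uncertain where their reads were shared.

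ATF3 (chromosome 1, 212738676 to 212794119, plus strand) encodes a bZIP repressor that ATF4 induces. HCT116 held it at 18.5, 21.9 and 23.6 CPM in normoxia and at 25.9, 34.2 and 24.4 in hypoxia, so that every hypoxic library lay above every normoxic one, by a small margin for the one numbered 3. It rose in HCT116 by 0.42 on the log2 scale, a fold of 1.34 (standard error 0.13, edgeR adjusted p = 0.0326), and this call rested on single libraries. Without normoxia replicate 1, normoxia replicate 2 or hypoxia replicate 2 the log2 change was 0.31, 0.42 and 0.25 and the edgeR adjusted p 0.0986, 0.0537 and 0.117, and without both libraries numbered 2 the log2 change was 0.27 (edgeR adjusted p = 0.186). Normoxic PC3 held ATF3 at 76.4, 24.6, 19.6 and 28.4 CPM and hypoxic PC3 at 79.3, 25.6, 21.1 and 35.2, with replicate 1 far above the rest in both and the conditions overlapping. Its PC3 log2 change was 0.12 with a standard error of 0.52, and 0.14 with a standard error of 0.06 in the replicate block (edgeR adjusted p = 0.128), with the hypoxic library the higher in all 4 pairs. Without either library numbered 1 it was 0.18 (standard error 0.20, edgeR adjusted p = 0.568).

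DDIT3 (chromosome 12, 57910371 to 57915520, minus strand), also known as CHOP, encodes the C/EBP relative that is linked with death under lasting stress. Normoxic PC3 held it at 18.9, 9.56, 8.60 and 12.5 CPM and hypoxic PC3 at 21.4, 10.6, 8.67 and 10.7, highest in replicate 1 each time, with overlap and a log2 change of 0.06 (standard error 0.33, edgeR adjusted p = 0.932), or -0.0300 without either library numbered 1. In HCT116 it was at 9.12, 11.8 and 10.5 CPM in normoxia and at 6.78, 10.3 and 6.79 in hypoxia. Only the hypoxic library numbered 2 lay within the normoxic range, and the log2 change of -0.38 (standard error 0.16) missed the threshold by edgeR (adjusted p = 0.101) and passed it by DESeq2 (-0.39, adjusted p = 0.0347). The reference transcripts of DDIT3 and MARS overlap by 60 exon bases at their 3′ ends on opposite strands, and the strand setting of the counting is not given in the sources used here, so where those reads went is uncertain. MARS, the methionyl-tRNA synthetase, fell in HCT116 by 0.49 on the log2 scale (standard error 0.08, edgeR adjusted p = 0.00123), and its part in the DDIT3 value was not tested.

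CEBPB (chromosome 20, 48807367 to 48809205, plus strand, 1 exon) encodes a C/EBP partner of ATF4. It was among the steadiest of the 10, between 55.8 and 64.4 CPM in all 8 PC3 libraries and between 37.4 and 48.6 in all 6 of HCT116. Its log2 change was 0.06 in PC3 (standard error 0.06, edgeR adjusted p = 0.584) and -0.01 in HCT116 (standard error 0.09, edgeR adjusted p = 0.947), with the conditions overlapping in both lines. An antisense RNA, CEBPB-AS1, overlaps the gene, and its reads cannot be told apart without a strand setting.

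TRIB3 (chromosome 20, 343479 to 378203, plus strand) encodes a pseudokinase that is induced by ATF4 with DDIT3 and restrains ATF4. In PC3 it was at 134.0, 104.7, 87.5 and 122.3 CPM in normoxia and at 179.9, 136.9, 119.2 and 200.1 in hypoxia. The ranges overlapped, but the hypoxic library was the higher in 4 of 4 pairs of the same number, by 1.34, 1.31, 1.36 and 1.64 times. Mean levels were 112 ± 20.4 and 159 ± 37.4 CPM (SD, n = 4 each). The log2 change of 0.51 (standard error 0.18) missed the threshold by edgeR without pairing (adjusted p = 0.109), and in the replicate block TRIB3 rose by 0.50 (standard error 0.07, edgeR adjusted p = 0.00303), the strongest change of the 10 in PC3. Without either library numbered 1 the unpaired log2 change was 0.54 (edgeR adjusted p = 0.112). HCT116 held TRIB3 at 45.8, 49.99 and 42.5 CPM in normoxia and 40.2, 50.4 and 40.4 in hypoxia, overlapping, with a log2 change of -0.06 (standard error 0.10, edgeR adjusted p = 0.671).

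CHAC1 (chromosome 15, 41245160 to 41248710, plus strand) encodes a glutathione-degrading enzyme downstream of ATF4 and DDIT3, and was among the lowest transcripts of the 10. HCT116 held it at 5.73, 9.02 and 5.80 CPM in normoxia and at 2.75, 7.11 and 3.29 in hypoxia. Within each condition the library numbered 2 was the highest, and the other hypoxic libraries lay below all normoxic ones. The log2 change was -0.63 (standard error 0.30, edgeR adjusted p = 0.147), the largest in size of the 10 in HCT116 yet not past the threshold. PC3 held it at 10.03, 6.99, 5.68 and 9.11 CPM in normoxia and 11.9, 6.19, 6.09 and 7.76 in hypoxia, overlapping, with a log2 change of 0.01 (standard error 0.25, edgeR adjusted p = 0.984) and of -0.12 without either library numbered 1.

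SESN2 (chromosome 1, 28586029 to 28609002, plus strand) encodes sestrin 2, a leucine-binding brake on mTORC1. It was at 6.95 to 13.5 CPM in normoxic and 8.54 to 13.97 in hypoxic PC3, highest in replicate 1 each time, and at 15.7 to 21.2 and 17.1 to 23.1 in HCT116, highest in replicate 2 each time. The conditions overlapped in both lines, and the log2 changes were 0.18 in PC3 (standard error 0.23, edgeR adjusted p = 0.662; 0.24 without either library numbered 1) and 0.09 in HCT116 (standard error 0.13, edgeR adjusted p = 0.620).

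ASNS (chromosome 7, 97480989 to 97501854, minus strand, 13 exons) encodes asparagine synthetase. In PC3 it was at 43.8, 41.5, 33.1 and 44.9 CPM in normoxia and at 36.8, 31.8, 30.2 and 42.2 in hypoxia. The hypoxic library was the lower in 4 of 4 pairs, at 0.841, 0.765, 0.913 and 0.939 of the normoxic level, within ranges that overlapped. The log2 change was -0.21 (standard error 0.13, edgeR adjusted p = 0.334), and in the replicate block ASNS fell by 0.21 (standard error 0.06, edgeR adjusted p = 0.0455). The unpaired log2 change was -0.13 without hypoxia replicate 3. In HCT116 it was at 109.9, 148.5 and 112.9 CPM in normoxia and at 79.5, 125.4 and 82.6 in hypoxia. The libraries numbered 2 were the highest in each condition, and the log2 change of -0.35 (standard error 0.16) missed the threshold (edgeR adjusted p = 0.135), and it was -0.21 without normoxia replicate 2. GENCODE names 5 ASNS pseudogenes, so its counts are uncertain to that extent.

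PSAT1 (chromosome 9, 80912041 to 80945009, plus strand) encodes phosphoserine aminotransferase, which follows PHGDH in serine synthesis. HCT116 held it at 241.4, 288.5 and 256.7 CPM in normoxia and at 190.7, 225.1 and 183.2 in hypoxia, with every hypoxic library below every normoxic one. It fell by 0.38 on the log2 scale, a fold of 1.30 (standard error 0.09, edgeR adjusted p = 0.0127). Without hypoxia replicate 3 the log2 change was -0.31 and the edgeR adjusted p 0.0572, and without both libraries numbered 2 PSAT1 remained past the threshold (-0.40, edgeR adjusted p = 0.0266). In PC3 it was at 60.1 to 67.6 CPM in normoxia and at 58.3 to 80.2 in hypoxia, overlapping, with a log2 change of 0.03 (standard error 0.10, edgeR adjusted p = 0.884). GENCODE names 4 PSAT1 pseudogenes.

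PHGDH (chromosome 1, 120191034 to 120286841, plus strand) encodes the first enzyme of serine synthesis. In PC3 it was at 65.6, 79.2, 70.9 and 96.7 CPM in normoxia and at 73.6, 87.0, 76.8 and 119.2 in hypoxia. The hypoxic library was the higher in 4 of 4 pairs, by 1.12, 1.098, 1.08 and 1.23 times, and the spread between numbers was wider than that step. The log2 change was 0.20 without pairing (standard error 0.16, edgeR adjusted p = 0.476), and in the replicate block PHGDH rose by 0.18 (standard error 0.05, edgeR adjusted p = 0.0373). The unpaired log2 change was 0.0296 without hypoxia replicate 4, the library of the widest pair. In HCT116 it was at 68.4 to 88.8 CPM in normoxia and 64.2 to 88.6 in hypoxia, with a log2 change of 0.00 (standard error 0.12, edgeR adjusted p = 0.994).

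**Figure D3:**
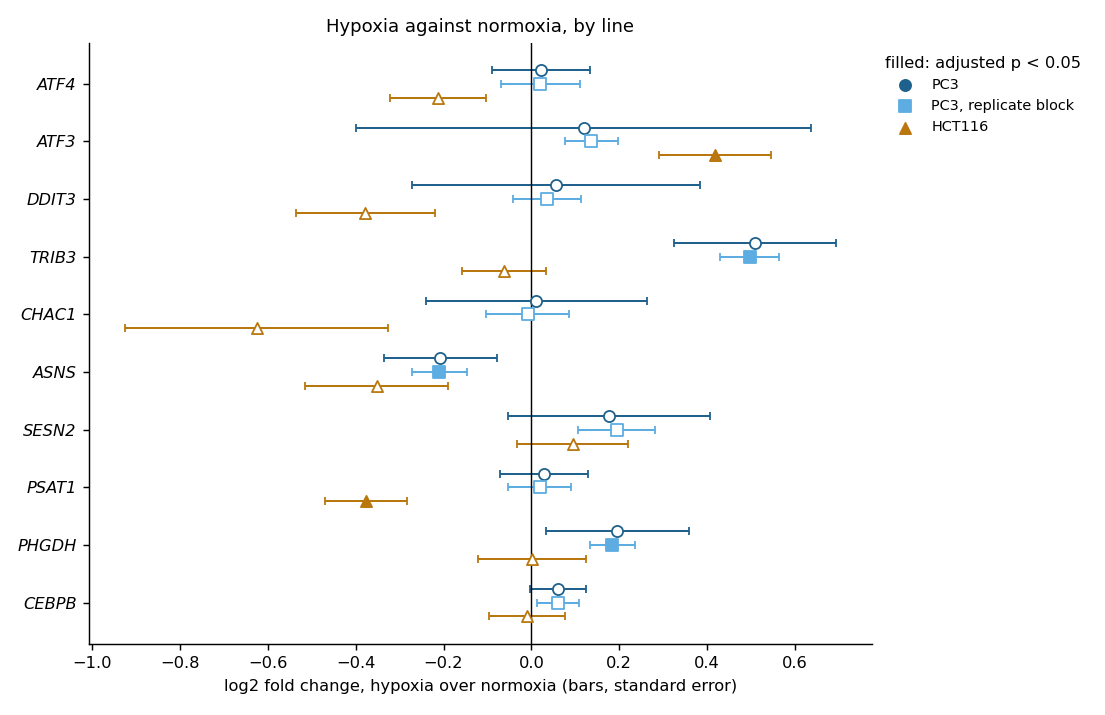
Log2 fold change, hypoxia over normoxia (horizontal axis), of the 10 genes (rows) with its standard error, in PC3 without and with the replicate block and in HCT116. Filled symbols passed an adjusted p of 0.05: TRIB3, ASNS and PHGDH in PC3 with the block, and ATF3 and PSAT1 in HCT116. The block leaves the PC3 values in place and narrows the bars, most of all for ATF3.

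The number of the 10 genes called lower in HCT116 turned on the libraries numbered 2. Without both of them, DDIT3 (-0.52), CHAC1 (-0.92), ASNS (-0.44) and PSAT1 (-0.40) fell on the log2 scale by edgeR, with adjusted p from 0.00347 to 0.0266, and ATF3 missed the threshold, against 3.48% of all genes lower and 6.18% higher in that fit. ATF4 was then at -0.30 with an edgeR adjusted p of 0.0612, and TRIB3 (-0.12), SESN2 (0.06), PHGDH (-0.0072) and CEBPB (-0.09) remained short of the threshold. Leaving out only hypoxia replicate 2 called 5 lower by edgeR, namely ATF4 (-0.37, adjusted p = 0.0127), DDIT3 (-0.61), CHAC1 (-1.17), ASNS (-0.60) and PSAT1 (-0.47), against 7.51% of all genes lower and 10.6% higher. Leaving out both was chosen with the values known, and the log2 change of ATF4, DDIT3, CHAC1, ASNS and PSAT1 was below 0 in all 16 fits of HCT116.

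The change with oxygen was then compared between the lines in one fit over the 14 libraries. By edgeR 0 of the 10 genes differed after adjustment, against 1.01% of all genes with a more positive change in PC3 and 1.31% with a more positive change in HCT116, 2 had an unadjusted p under 0.05, and DESeq2 also called 0 (all genes by DESeq2: 3.2% and 3.41%). These 2 were TRIB3, at 0.58 (standard error 0.24, edgeR adjusted p = 0.242) as PC3 minus HCT116, and PSAT1, at 0.42 (standard error 0.16, edgeR adjusted p = 0.186). With the replicate block in PC3 alone, a fit added with the data in view, the difference for TRIB3 was 0.57 (standard error 0.12, edgeR adjusted p = 0.0133) and passed the threshold, and that for PSAT1 was 0.41 (edgeR adjusted p = 0.0582), against 3.8% of all genes more positive in PC3 and 4.4% in HCT116. For 9 of the 10 genes the difference was above 0, with a median of 0.23 against 0.00 over all genes, and the exception was ATF3 (-0.29, standard error 0.64). This direction is given as a description, and for SESN2, ATF3 and CEBPB it turned when single libraries were left out.

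Levels were compared between the lines within each condition, where most genes of the whole table differed. In normoxia 4 genes were higher in HCT116, which compares with 38.9% of all genes, and 2 were higher in PC3, which compares with 42.4%. PSAT1 was 4.09-fold higher in HCT116 (log2 ratio, PC3 over HCT116, -2.03, standard error 0.11, edgeR adjusted p = 1.28e-10), ASNS 3.03-fold (-1.60, standard error 0.17), ATF4 2.98-fold (-1.58, standard error 0.12) and SESN2 1.98-fold (-0.98, standard error 0.21). TRIB3 was 2.43-fold higher in PC3 (1.28, standard error 0.18) and CEBPB 1.37-fold (0.45, standard error 0.08). For these 6 genes the libraries of the lines did not overlap in either condition, and the share of all genes without such overlap was not computed. The other 5 edgeR adjusted p values in normoxia ran from 9.62e-09 to 0.000486. Each of the 6 stayed past the threshold in both conditions without both PC3 libraries numbered 1 and without both HCT116 libraries numbered 2. The lines overlapped for ATF3, DDIT3, CHAC1 and PHGDH, which were not called, though ATF3 (log2 ratio 0.80, standard error 0.46, edgeR adjusted p = 0.118) passed without PC3 hypoxia replicate 1, a library of the other condition (edgeR adjusted p = 0.0495), and its log2 ratio was 0.18 without PC3 normoxia replicate 1 (edgeR adjusted p = 0.648) and 0.18 without both PC3 libraries numbered 1 (edgeR adjusted p = 0.359).

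In hypoxia the same 6 genes differed between the lines in the same direction, and CHAC1 joined those higher in PC3. That made 4 higher in HCT116 and 3 higher in PC3, against 39% and 41.8% of all genes. The gap of TRIB3 was wider, at 3.64-fold (log2 ratio 1.86, standard error 0.18, edgeR adjusted p = 1.16e-07), and those of PSAT1 (3.06-fold), ATF4 (2.51-fold) and ASNS (2.72-fold) were narrower than in normoxia, and the test of these shifts is the difference in response given above. CHAC1 was 1.82-fold higher in PC3 (log2 ratio 0.86, standard error 0.33, edgeR adjusted p = 0.0241) with libraries that overlapped, and it missed the threshold without PC3 hypoxia replicate 1, HCT116 hypoxia replicate 1 or HCT116 hypoxia replicate 3, with log2 ratios of 0.61, 0.60 and 0.68 and edgeR adjusted p of 0.0848, 0.131 and 0.113, while without HCT116 hypoxia replicate 2 the log2 ratio was 1.39. Without both PC3 libraries numbered 1, CHAC1 also missed the threshold (log2 ratio 0.61, edgeR adjusted p = 0.0781). DDIT3 stood just outside the threshold at 0.69 (standard error 0.31, edgeR adjusted p = 0.0504). It passed by edgeR with median-of-ratios scaling (adjusted p = 0.0486), with total-count scaling (0.0379), with no filter (0.0483) and with at least 10 counts in every library (0.0471). It also passed without PC3 normoxia replicate 1 or 3, PC3 hypoxia replicate 2 or 3, or HCT116 hypoxia replicate 2, with log2 ratios of 0.69 to 0.91, and without both HCT116 libraries numbered 2 (edgeR adjusted p = 0.0403), and missed it furthest without PC3 hypoxia replicate 1 (0.32, edgeR adjusted p = 0.239).

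**Figure D4:**
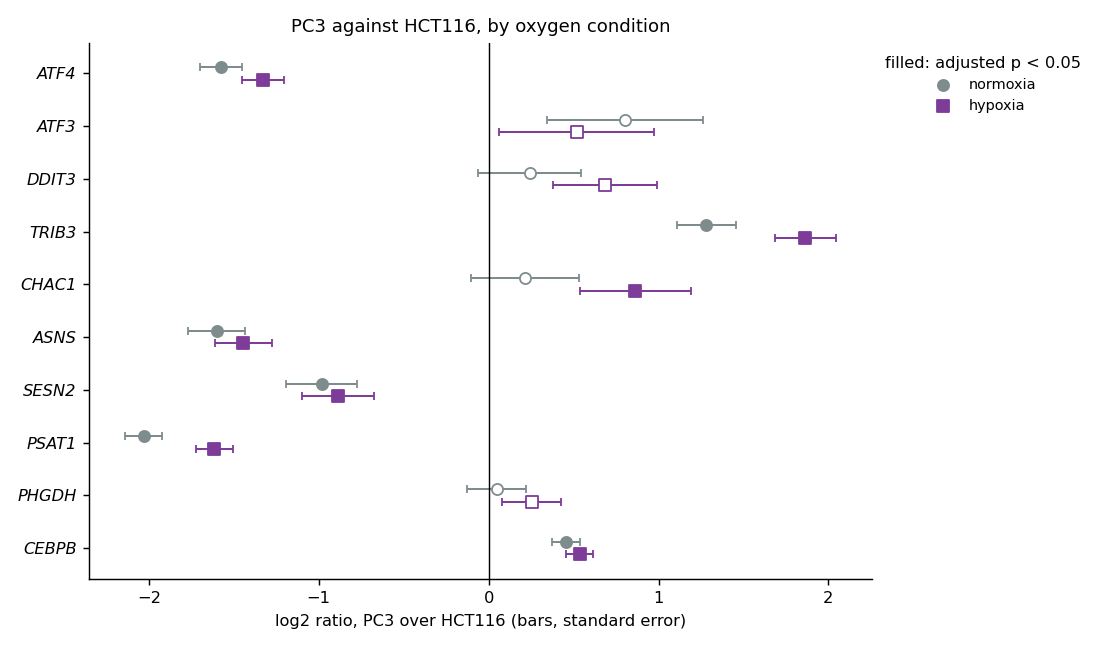
Log2 ratio, PC3 over HCT116 (horizontal axis), of the 10 genes (rows) with its standard error in normoxia and in hypoxia, with filled symbols where the adjusted p was under 0.05. ATF4, ASNS, SESN2 and PSAT1 lie left of 0 (higher in HCT116) in both conditions, TRIB3 and CEBPB right of 0, and CHAC1 is filled only in hypoxia.

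Levels of the 10 genes were ordered per kilobase of the reference transcript, taken from GENCODE and not from the gene models used for counting. In normoxic PC3 ATF4 led at 102 ± 11.8 CPM per kb, followed by TRIB3 (47.6 ± 8.64), PHGDH (41.8 ± 7.30), CEBPB (32.7 ± 1.70), PSAT1 (29.1 ± 1.66), ATF3 (19.2 ± 13.6), ASNS (17.1 ± 2.24), DDIT3 (13.7 ± 5.16), CHAC1 (5.23 ± 1.30) and SESN2 (2.67 ± 0.833) (SD, n = 4). TRIB3 and PHGDH lay within their spread of each other, as did ASNS and DDIT3. The spread of ATF3 reached from below DDIT3 to the level of PSAT1 and CEBPB, and without replicate 1 ATF3 stood at 12.5 ± 2.27 CPM per kb (SD, n = 3), below ASNS (16.7 ± 2.55) and near DDIT3 (11.3 ± 2.24). In normoxic HCT116 ATF4 led again at 305 ± 23.0 CPM per kb, followed by PSAT1 (118.9 ± 10.9), ASNS (51.9 ± 9.01), PHGDH (40.5 ± 6.15), CEBPB (23.9 ± 0.816), TRIB3 (19.6 ± 1.59), DDIT3 (11.6 ± 1.51), ATF3 (10.99 ± 1.33), SESN2 (5.29 ± 0.798) and CHAC1 (4.51 ± 1.24) (SD, n = 3). There ASNS and PHGDH, DDIT3 and ATF3, and SESN2 and CHAC1 lay within their spread of each other.

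Profiles across the 14 libraries set some of these genes beside each other. Likeness was the root mean square difference of log2 CPM, each gene centred on its own mean, among 15492 other genes. The gene most like ASNS was ATF4, at 0.18, followed by PMEL (0.19) and KIAA0895 (0.20), and PSAT1 ranked 24 (0.23). The genes most like ATF4 were KIAA1598 (0.14), CAMK2D (0.14) and KIAA0895 (0.14), with ASNS at rank 37. For DDIT3 the most alike were ADM2 (0.15), CREBRF (0.22) and CD55 (0.24), with CHAC1 at rank 8 (0.26) and ATF4 at rank 10465 (0.96). ATF4 itself varied by 0.74 about its mean and DDIT3 by 0.45, and the 14 points share lines and libraries, so the likeness is a description of these libraries.

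The wider pathway was read from 101 genes in 7 lists, of which DELE1 matched no symbol. In PC3 10 of the 95 tested were higher in hypoxia and 2 lower, and with the replicate block 27 were higher and 6 lower. In HCT116 19 of 93 were higher and 10 lower. All of these are calls of the edgeR test after adjustment over all genes. The shares of higher genes, 10.5% in PC3 (28.4% with the block) and 20.4% in HCT116, stand beside 6.03%, 14.9% and 14.6% of all genes, and those of lower genes, 2.11%, 6.32% and 10.8%, beside 5.29%, 13.6% and 11.3%. Without both PC3 libraries numbered 1, 16 of 95 were higher and 2 lower (16.8% and 2.11%, against the 7.04% and 5.42% given above). Without both HCT116 libraries numbered 2, 14 of 92 were higher and 3 lower (15.2% and 3.26%, against the 6.18% and 3.48% given above).

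The genes at the head of the response come first. Of 17 kinases, eIF2 and eIF2B subunits and regulators, 1 fell in PC3, IMPACT (log2 change -0.24, standard error 0.06), an inhibitor of the kinase GCN2, and in the replicate block 2 were higher and 3 lower (14.9% and 13.6% of all genes), with EIF2AK3, the kinase PERK, at 0.28. IMPACT missed the threshold without both PC3 libraries numbered 1 (-0.23, edgeR adjusted p = 0.0573). In HCT116 the eIF2B subunit gene EIF2B4 (-0.30), the eIF2 subunit gene EIF2S3 (-0.25) and the kinase gene EIF2AK2 (-0.18) fell, and PPP1R15A, which encodes the stress-induced eIF2alpha phosphatase subunit GADD34, rose by 0.20 (standard error 0.07, edgeR adjusted p = 0.04995), which made 3 lower and 1 higher beside 11.3% and 14.6% of all genes. Without both HCT116 libraries numbered 2 these log2 changes were -0.28, -0.26, -0.20 and 0.16, and all 4 missed the threshold (edgeR adjusted p from 0.0675 to 0.262).

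Amino acid genes moved in both directions. Of 13 serine, one-carbon, proline and transsulfuration enzymes tested in PC3, CTH, which makes cysteine from cystathionine, rose by 0.78 (standard error 0.16) from 9.49 ± 1.39 to 16.2 ± 3.10 CPM (SD, n = 4), and GPT2, the mitochondrial alanine aminotransferase, by 0.46. CTH was at 9.07 ± 0.956 and 7.55 ± 1.17 CPM in HCT116 (SD, n = 3), and its change was more positive in PC3 by 1.04 (standard error 0.22, edgeR adjusted p = 0.0208). HCT116 raised GPT2 (0.32) and ALDH18A1 (0.27), which starts proline synthesis, of 12 tested, and without both libraries numbered 2 they were at 0.30 and 0.29, past the threshold no longer (edgeR adjusted p = 0.0682 and 0.0660). The replicate block in PC3 also called PSPH (0.22), the last enzyme of serine synthesis, higher. Of 10 transporters, SLC38A2, a neutral amino acid carrier, rose in both lines (0.56 and 0.30), in HCT116 not past the threshold without both libraries numbered 2 (0.25, edgeR adjusted p = 0.209), and SLC43A1 fell in PC3 (-0.56). The replicate block in PC3 added SLC6A9 (0.46), SLC7A5 (0.26) and SLC38A1 (0.19) as higher. In HCT116 SLC7A11, the cystine carrier, fell by 0.87 (standard error 0.16) from 87.5 ± 13.2 to 47.2 ± 12.4 CPM, and SLC6A9, the glycine carrier, by 0.50, and without both libraries numbered 2 both remained past the threshold (-0.98 and -0.50). Both differed between the lines by edgeR, by 0.85 (adjusted p = 0.0489) for SLC7A11 and 0.97 (adjusted p = 0.0116) for SLC6A9, with the more positive change in PC3. Without both HCT116 libraries numbered 2, SLC7A11 stayed past the threshold (0.96, edgeR adjusted p = 0.0168) and CTH (1.09, 0.0790) and SLC6A9 (0.98, 0.0720) did not. Without both PC3 libraries numbered 1, CTH and SLC6A9 stayed past it and SLC7A11 did not (0.79, edgeR adjusted p = 0.0693).

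Some aminoacyl-tRNA synthetase genes fell in HCT116. Of 12 tested, 5 were lower, MARS (-0.49), NARS (-0.32), YARS (-0.29), SARS (-0.22) and WARS (-0.20), against 11.3% of all genes, with a median log2 change of -0.15 against 0.00 over all genes. Without both HCT116 libraries numbered 2 the median was -0.16 and of the 5 only MARS was past the threshold (-0.47, edgeR adjusted p = 0.0154), against 3.48% of all genes. In PC3 the median was -0.03, and the only call in the unpaired and blocked fits was YARS, lower in the replicate block (-0.23, edgeR adjusted p = 0.0166).

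The list of other stress targets held the largest changes. Of 18 tested in PC3, DDIT4 (1.495), VLDLR (1.30), VEGFA (0.65) and NFIL3 (0.65) were higher, and of 17 in HCT116 7 were higher, led by DDIT4 (4.08), STC2 (1.65), VEGFA (1.097) and GDF15 (0.87). Of all genes, 6.03% were higher in PC3 and 14.6% in HCT116. The replicate block in PC3 called 10 higher and 1, GADD45A (-0.21), lower, adding GDF15 (0.69), STC2 (0.48), SQSTM1 (0.43), EIF4EBP1 (0.37), MAP1LC3B (0.26) and KLHL24 (0.23). With that block 14.9% of all genes were higher and 13.6% lower. GDF15 was at 0.51 in PC3 without pairing (edgeR adjusted p = 0.703) and at 0.81 without both libraries numbered 1 (edgeR adjusted p = 0.00577). In HCT116 7 of 16 were higher without both libraries numbered 2, against 6.18% of all genes. Among them were DDIT4 (4.11), STC2 (1.61), VEGFA (1.101) and GDF15 (0.72). DDIT4, an mTORC1 inhibitor, VEGFA, an angiogenic factor, and VLDLR are also known targets of the hypoxia-inducible factors. DDIT4 went from 14.4 ± 6.65 to 40.6 ± 9.34 CPM in PC3 and from 31.7 ± 9.57 to 531 ± 143 in HCT116, and the difference of its log2 changes, PC3 minus HCT116, was -2.57 (standard error 0.42, edgeR adjusted p = 0.00476). It stayed past the threshold without both PC3 libraries numbered 1 (-2.26) and without both HCT116 libraries numbered 2 (-2.59). Among 19 bZIP partners, JUN rose in both lines (0.64 and 1.41), with JUND (0.92), JUNB (0.63), NFE2L1 (0.42) and CEBPA (0.41) in HCT116. For these partners and the relatives below, the shares of all genes are those given above for the stress targets. The replicate block in PC3 added JUND (0.49), FOS (0.49), JDP2 (0.35), NFE2L1 (0.21) and CREB1 (0.15) as higher. Of 9 relatives of the 10 genes, TRIB2 (0.68 and 0.47) and TRIB1 (0.28 and 0.42) rose in both lines and SESN1 in HCT116 (0.29), the latter not past the threshold without both libraries numbered 2 (0.27, edgeR adjusted p = 0.186).

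**Figure D5:**
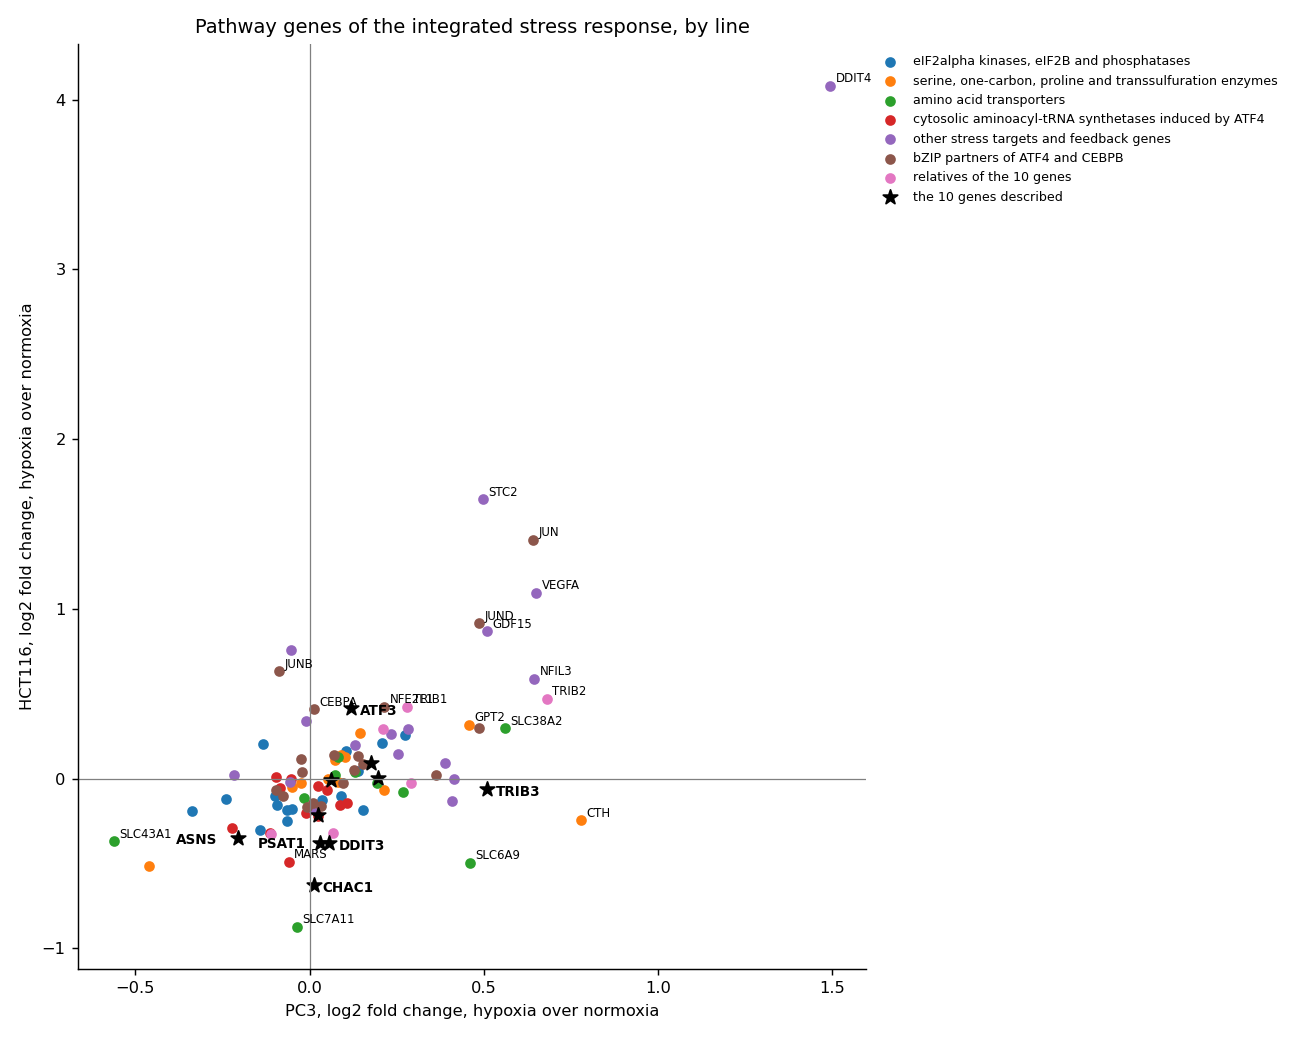
Log2 fold change in PC3 (horizontal axis) against that in HCT116 (vertical axis), hypoxia over normoxia, for the pathway genes tested in both lines, coloured by list, with the 10 genes described as black stars and the further-moving ones named. The stars lie near 0 beside DDIT4 (1.495 and 4.08), and CTH (0.78 and -0.25) and SLC6A9 (0.46 and -0.50) lie to the lower right, above 0 in PC3 and below 0 in HCT116.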

How the data were processed

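The authors prepared polyadenylated RNA-seq libraries with ERCC spike-ins, sequenced them in pairs of reads, aligned the reads with HISAT2 (version 2.05 per the submitters' processing notes) to the ERCC sequences and then to GRCh37, and counted reads within RefSeq genes with HTSeq (version 0.5.4p3, intersection-strict mode). The deposited values are raw counts per gene and library, with no normalisation; the RefSeq release and the strand setting are not given in the sources used here. The study scaled by ERCC reads, which were not used here, so a shift shared by most transcripts would not be seen.

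Counts were tested within each line with edgeR (version 4.0.16, R 4.3.3): filterByExpr, TMM factors, the quasi-likelihood test, two-sided, and Benjamini-Hochberg adjustment over all genes tested, with a threshold of 0.05. Differences between lines and in response were contrasts of one fit over 14 libraries. A standard error is the unshrunken log2 change over the square root of F. The scripts were tested on simulated data with 200 genes changed 2-fold. By edgeR 81.5% were recovered in PC3, 91% in HCT116 and 61% for the difference between the lines, with 11, 18 and 5 false calls. DESeq2 recovered 85.5%, 92.5% and 72.5%, with 62, 44 and 32 false calls. Changes smaller than 2-fold were not simulated. Replicates are biological replicates per the study's methods.

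The replicate numbers were taken to pair the libraries of PC3, where same-numbered libraries deviated together from the means of their conditions, with correlations of 0.831, 0.472, 0.314 and 0.408 over 12311 genes of at least 1 CPM, and the block is given beside the results of the 10 genes where it changed a call, and as counts with examples for the lists. No 2 replicates were as alike as counting error allows (chi-square of 12.5 to 268 per gene), so all were used.

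The 10 genes and the lists were chosen with earlier results of these data known. Besides the 10, up to 4 called genes per list and line with the largest change and a mean of at least 1 CPM were named, and WARS, EIF2AK3 and the genes called with the block alone were named after their values were seen. The alternatives tried were scaling by total counts, upper quartiles or median ratios, DESeq2 (version 1.42.0), no filter or at least 10 counts in every library, the block, one fit over both lines and each library left out. Leaving out both PC3 libraries numbered 1 or both HCT116 libraries numbered 2, and the block in PC3 alone, were added with the values known. Positions are from GENCODE v44lift37 (GRCh37).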

Additional observations from a re-analysis of the deposited data

Results flagged for a closer look

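In PC3, 8 of 80 groups of 4 libraries (10 stress response genes and those named from the lists, per condition) had a library that stood off from the other 3 by Dixon's test, where chance alone gives about 4. Replicate 1 was high for ATF3 in normoxia (76.4 CPM against 19.6 to 28.4), for DDIT3 in hypoxia (21.4 against 8.67 to 10.7), for GDF15 in normoxia (569.6 against 83.2 to 108) and hypoxia (717.8 against 149 to 175) and for PPP1R15A in normoxia (132.7 against 71.7 to 73.7) and hypoxia (116.3 against 65.8 to 69.8). SLC38A2 was low in normoxia replicate 3 (372.8 CPM against 417 to 425), and VLDLR was high in hypoxia replicate 2 (5.27 against 4.33 to 4.46).

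The response to hypoxia differed between the lines by the unpaired test of the difference for 4 of the 95 list genes tested and for none of the 10 stress response genes. As PC3 minus HCT116 on the log2 scale, it was 1.04 for CTH, 0.85 for SLC7A11, 0.97 for SLC6A9 and -2.57 for DDIT4 (edgeR adjusted p = 0.0208, 0.0489, 0.0116 and 0.00476). With the replicate block in PC3 it differed for 11 genes of the lists, these 4 with STC2 (-1.15), JUN (-0.74), JUNB (-0.71), VEGFA (-0.45), SQSTM1 (0.45), MARS (0.44) and PPP1R15A (-0.31), and for TRIB3 of the 10 (0.57, edgeR adjusted p = 0.0133). Of the 95 list genes, 3.16% were called more positive in PC3 and 1.05% in HCT116 without pairing, against 1.01% and 1.31% of all genes. With the block these shares were 5.26% and 6.32%, against 3.8% and 4.4% of all genes.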

How the results depend on the processing

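Counts of the 10 genes past the threshold depended on the fit in the hypoxia comparisons. In PC3, 1 was higher with DESeq2 or one fit over both lines (TRIB3 each time) and, with the replicate block, 2 were higher and 1 lower, against 0 and 0. In HCT116, 5 were lower under total-count scaling, 2 with DESeq2 and 4 without both libraries numbered 2, and 0 were higher without those 2 or in one fit over both lines, against 1 and 1. Total-count scaling called 3146 of all 14120 genes lower in HCT116, against 1597 in the main fit. HCT116 replicate numbers were not taken to pair the libraries: same-numbered deviations correlated at 0.0921, 0.388 and -0.0593, and only number 2 correlated best with itself. The replicate block there called 4 lower and 1 higher, beside 1656 lower and 2098 higher of all 14120 genes. In the difference between the lines, 3 were more positive in PC3 with the block in both lines and 1 with the block in PC3 alone. Of all 15493 genes, 597 and 588 were more positive in PC3 in these fits. Without 1 library at a time, 0 to 1 were higher and 0 to 5 lower in HCT116. The block changed no other call of the 10 than those counted here.

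Signs turned mostly where the change was near 0. For PC3 hypoxia these log2 changes were, with upper-quartile scaling, ATF4 -0.0216, CHAC1 -0.0349 and PSAT1 -0.0149; with total-count scaling, ATF4 -0.0821, DDIT3 -0.0461, CHAC1 -0.0951, PSAT1 -0.0811 and CEBPB -0.0459; with the replicate block, CHAC1 -0.0087; and without both PC3 libraries numbered 1, ATF4 -0.0711, DDIT3 -0.0300 and CHAC1 -0.12. PHGDH in HCT116 turned to -0.0094 with median-of-ratios scaling and with DESeq2, -0.0086 with upper quartiles, -0.0922 with total counts, -0.0004 with the block, -0.0072 without both libraries numbered 2 and -0.0147 in one fit, and SESN2 to -0.0014 with total counts. Between the lines, PHGDH in normoxia turned to -0.0165 with upper quartiles, and without both PC3 libraries numbered 1 DDIT3 in normoxia to -0.0343 and ATF3 in hypoxia to -0.0462. Total-count scaling moved the median over all genes to -0.10 in PC3 and -0.09 in HCT116, and to 0.13 between the lines in normoxia.

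With 1 library left out, the PC3 log2 change ran from -0.0783 to 0.0949 for ATF4, -0.46 to 0.76 for ATF3, -0.32 to 0.35 for DDIT3, -0.26 to 0.15 for CHAC1, -0.0082 to 0.42 for SESN2 and -0.0801 to 0.0724 for PSAT1, and that of HCT116 from -0.0562 to 0.20 for SESN2, -0.14 to 0.12 for PHGDH and -0.11 to 0.0765 for CEBPB. The difference between the lines ran from -0.85 to 0.34 for ATF3, -0.0805 to 0.33 for SESN2 and -0.0051 to 0.18 for CEBPB. The line ratio ran from -0.0356 to 0.38 for DDIT3 and -0.0705 to 0.18 for PHGDH in normoxia, and from -0.0470 to 0.73 for ATF3 in hypoxia. DDIT3 in hypoxia passed the threshold in 5 of 14 such fits, in 4 settings of scaling or filter given in the report, and without both HCT116 libraries numbered 2. Where a cause is not part of the setting, it was not tested.

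Over all genes tested, the PC3 counts of 863 higher and 757 lower became 562 and 1733 with total-count scaling, 1392 and 1209 with DESeq2 and 2125 and 1949 with the block, and 1219 and 1246 in one fit. Upper-quartile scaling gave 681 and 1048. In HCT116 2061 and 1597 became 1286 and 3146 with total-count scaling, 875 and 493 without both libraries numbered 2 and 938 and 795 in one fit. The difference between the lines called 156 and 203, against 466 and 497 with DESeq2, 597 and 710 with the block, 588 and 682 with the block in PC3 alone and 35 and 47 without both HCT116 libraries numbered 2.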
